A study of Homo sapiens with 12 samples.

Results

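Thioredoxin, the enzymes around it and the enzymes that supply it with NADPH were examined in human liver spheroid co-cultures. The set was 8 genes of the 16705 in the expression table, picked by symbol with earlier results of these data known. TXN, TXNRD1, SRXN1 and PRDX1 stood for the thioredoxin side, and PGD, TALDO1, TKT and ME1 for the NADPH side. Of these, 7 had a mean of at least 0.5 FPKM over all libraries and were tested among 11713 such genes, and ME1 was below that level. FPKM is the number of sequenced fragments of a gene, scaled by transcript length and by library size.

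The spheroids combined hepatocyte-like C3A cells, cloned from the liver tumour line HepG2, with fewer LX-2 cells, which stand for hepatic stellate cells, the fibre-forming cells of the liver, in their activated state. They were left untreated or exposed to 1% TPN (total parenteral nutrition, a clinical infusion that supplies glucose, lipids, amino acids, electrolytes, vitamins and trace elements) for 24 h or 144 h. In the study, exposure began on day 3 after cell seeding, and both times count from there. Each of the 4 groups had 3 libraries, each made from the pooled RNA of many spheroids. Both are established lines, so the replicates were cultures and not donors. The labels give the replicates numbers only, while the study describes independent experiments. P values set differences between groups against the spread between these libraries.

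Thioredoxin is a small protein that reduces disulfides in other proteins, among them the peroxiredoxins, which break down hydrogen peroxide. Each cycle leaves thioredoxin oxidized, and thioredoxin reductase restores it with electrons from NADPH. In liver cells much cytosolic NADPH comes from the oxidative branch of the pentose phosphate pathway, while the non-oxidative branch returns its sugar phosphates to glycolysis. Several of these genes are known targets of NRF2, a transcription factor that binds antioxidant response elements.

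The summed FPKM of a library was between 561657 and 583722. Low FPKM values of 22 short genes came in steps of 1 fragment, which put the depth at about 1.77e+07 to 1.89e+07 fragments per library, so that 1 fragment on a transcript of 2000 bases was worth about 0.0317 FPKM. All 12 hepatocyte markers examined reached 1 FPKM in each group. At 24 h the 14 stellate or fibroblast markers summed to 140 to 148 FPKM in untreated and 125 to 128 FPKM in exposed spheroids. At 144 h the sums were 76.2 to 81.0 FPKM in untreated and 70.7 to 73.2 FPKM in exposed spheroids. Most of these sums at 144 h was ACTA2 (means of 47.9 FPKM untreated and 45.4 FPKM exposed) and SPARC (20.8 and 21.7 FPKM), so they say little about the other markers. PDGFRA, DES, LUM and DCN were below 0.1 FPKM in all groups. Fewer cells of a type and less RNA per cell cannot be told apart in these pooled RNA samples.

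All 7 tested genes were higher in exposed than in untreated spheroids at both time points, by adjusted p (limma, Benjamini-Hochberg) below 0.05. Over all genes tested, 5.04% were higher and 5.46% lower at 24 h, and 24.2% were higher and 28.3% lower at 144 h. Their median log2 fold change was 0.35 at 24 h and 0.71 at 144 h, where the medians of all genes were -0.0045 and -0.018. In each of the 7 genes every exposed library was above every untreated library of the same time point, a pattern found in 13.9% of all genes at 24 h and in 27.2% at 144 h. With 3 libraries against 3, the exact permutation test gives a 2-sided p of 0.1 for such groups, the smallest it can give.

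**Figure D1:**
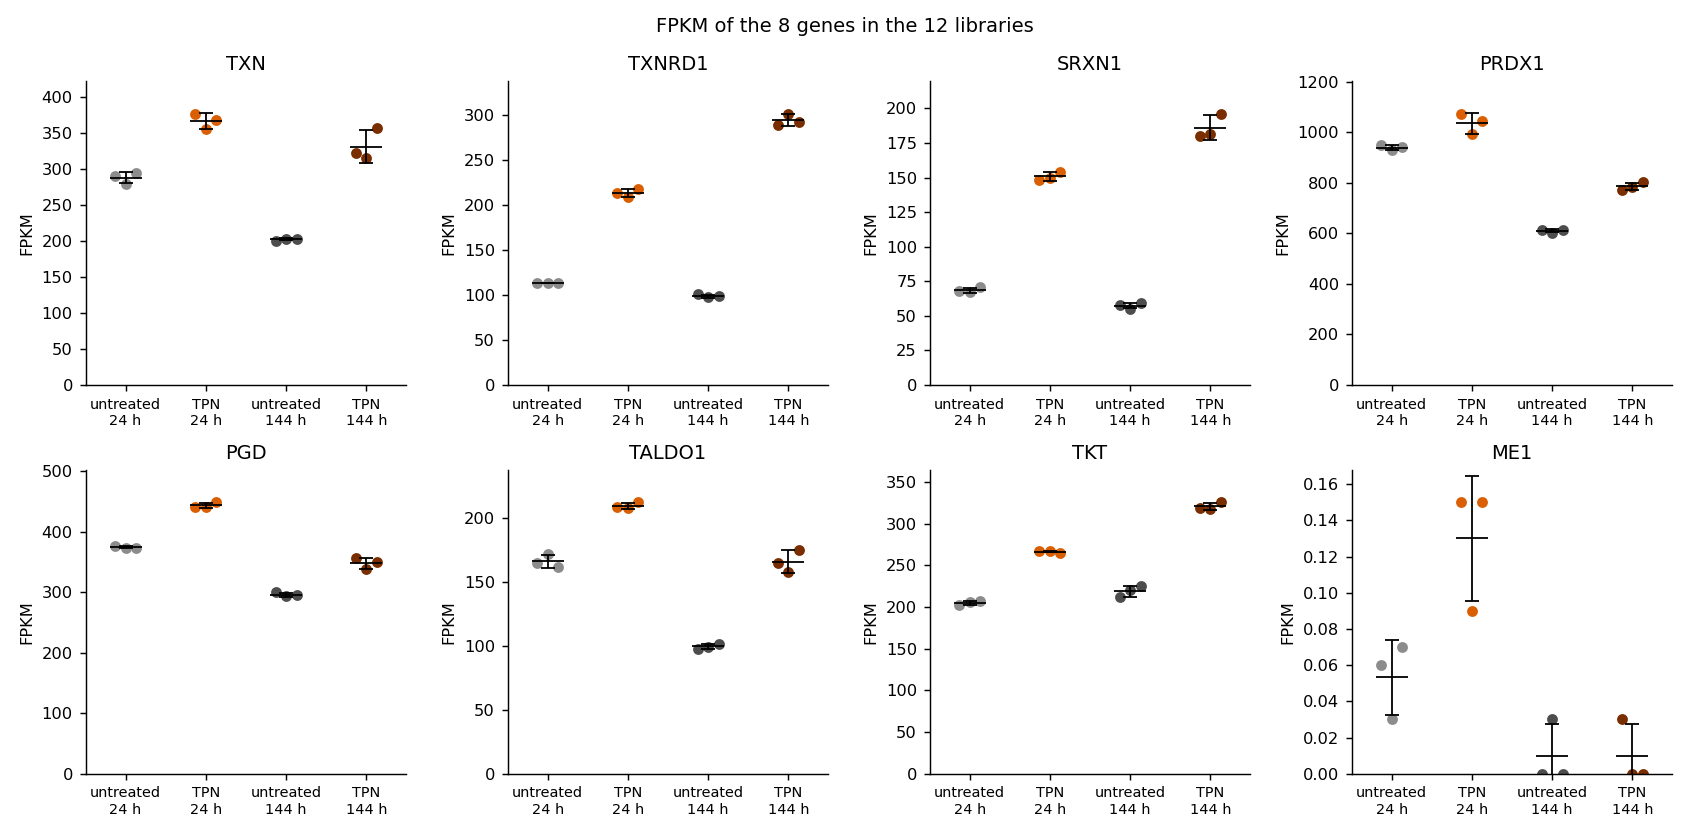
FPKM of the 8 genes in the 12 libraries, 1 panel per gene with its own linear axis from 0. Points are libraries, and bars are the mean and SD of 3 libraries. Exposed libraries lie above the untreated libraries of the same time point in the 7 panels other than ME1. In the ME1 panel, whose axis ends below 0.2 FPKM, they do so at 24 h and overlap at 144 h.

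SRXN1 and TXNRD1 changed most, and they were the 2 genes of the set that also passed the fold criterion of a DEG (absolute log2 fold change above 0.58) at 24 h. That criterion was passed upwards by 0.640% of all genes at 24 h and by 5.75% at 144 h. At 144 h TXN and TALDO1 joined them, giving 4 DEGs among the 7 tested genes.

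SRXN1 (gene 140809, chr20:646615-653200 in GRCh38.p13) encodes sulfiredoxin, which repairs peroxiredoxins that peroxide has overoxidized. In untreated spheroids it stood at 67.7, 67.1 and 70.5 FPKM at 24 h and at 58.1, 55.3 and 59.0 FPKM at 144 h. In exposed spheroids it stood at 148, 150 and 154 FPKM at 24 h and at 180, 182 and 196 FPKM at 144 h. The exposed libraries were thus far above all untreated libraries, and those at 144 h were above those at 24 h. The log2 fold change was 1.14 (SE 0.037, adjusted p = 2.50e-10), or 2.201-fold, at 24 h. It was 1.69 (SE 0.037, adjusted p = 1.11e-12), or 3.23-fold, at 144 h. Ordered by log2 fold change, SRXN1 was number 18 of 11713 genes at 24 h and number 62 at 144 h.

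TXNRD1 (gene 7296, chr12:104215396-104350307) encodes the cytosolic thioredoxin reductase, a selenoprotein. Its untreated libraries were very close together, with 114, 113 and 113 FPKM at 24 h and 101, 97.5 and 98.7 FPKM at 144 h. Exposed libraries reached 214, 210 and 218 FPKM at 24 h and 290, 302 and 292 FPKM at 144 h. All exposed libraries of a time point were therefore well over the untreated range, and again those at 144 h were highest. The log2 fold change was 0.91 (SE 0.026, adjusted p = 4.46e-11) at 24 h and 1.57 (SE 0.026, adjusted p = 1.35e-13) at 144 h, or 1.88-fold and 2.97-fold. It was number 38 and number 75 in the order of log2 fold changes.

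TXN (gene 7295, chr9:110243810-110256507), the cytosolic thioredoxin itself, rose less than its reductase. The untreated libraries held 290, 278.9 and 294 FPKM at 24 h and 200, 203 and 202 FPKM at 144 h. After exposure TXN was at 377, 355 and 368 FPKM at 24 h and at 321, 315 and 357 FPKM at 144 h. In exposed spheroids the level thus stayed above 300 FPKM, while untreated spheroids at 144 h were all near 200 FPKM. The log2 fold change was 0.35 (SE 0.041, adjusted p = 9.11e-05) at 24 h and 0.71 (SE 0.041, adjusted p = 1.06e-08) at 144 h.

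PRDX1 (gene 5052, chr1:45511051-45522972), a cytosolic peroxiredoxin that thioredoxin reduces, was the most abundant of the 8 genes and changed least at 24 h. Untreated libraries had 949, 927 and 941 FPKM at 24 h and 613, 602 and 613 FPKM at 144 h. Exposed libraries had 1073, 992 and 1043 FPKM at 24 h and 773, 782 and 802 FPKM at 144 h. The groups did not overlap, but the lowest exposed library at 24 h was only a few percent above the highest untreated one. The log2 fold change was 0.14 (SE 0.029, adjusted p = 0.00742) at 24 h and 0.37 (SE 0.029, adjusted p = 2.58e-07) at 144 h.

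On the NADPH side, PGD (gene 5226, chr1:10399044-10420511) encodes 6-phosphogluconate dehydrogenase, an NADPH-forming enzyme of the oxidative branch. Its untreated libraries had 376, 374 and 374 FPKM at 24 h and 300, 293 and 296 FPKM at 144 h. Exposed libraries had 441, 442 and 449 FPKM at 24 h and 356, 338 and 349 FPKM at 144 h. PGD was above its untreated range at both time points. Its log2 fold changes were similar, at 0.24 (SE 0.024, adjusted p = 1.89e-05) at 24 h and 0.23 (SE 0.024, adjusted p = 3.38e-06) at 144 h.

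TALDO1 (gene 6888, chr11:747464-765012) encodes transaldolase and TKT (gene 7086, chr3:53224712-53256052) transketolase, the enzymes that exchange carbon units in the non-oxidative branch. TALDO1 was at 165, 172 and 162 FPKM in untreated and 208, 207 and 212 FPKM in exposed spheroids at 24 h. At 144 h it was at 97.8, 99.1 and 102 FPKM in untreated and 165, 157 and 175 FPKM in exposed spheroids. Exposed spheroids at 144 h thus held about the TALDO1 level of untreated spheroids at 24 h. The log2 fold change was 0.33 (SE 0.036, adjusted p = 4.57e-05) at 24 h and 0.73 (SE 0.036, adjusted p = 2.52e-09) at 144 h.

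TKT was at 202, 206 and 207 FPKM in untreated and at 267, 267 and 266 FPKM in exposed spheroids at 24 h. At 144 h it was at 212, 221 and 225 FPKM in untreated and at 319, 318 and 326 FPKM in exposed spheroids. The gap between exposed and untreated libraries was many times the spread within a group. The log2 fold change was 0.38 (SE 0.026, adjusted p = 5.24e-07) at 24 h and 0.55 (SE 0.026, adjusted p = 1.63e-09) at 144 h, just under the fold criterion.

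ME1 (gene 4199, chr6:83210402-83431078), the cytosolic malic enzyme and another source of NADPH, was almost without transcript. It was listed at 0.06, 0.03 and 0.07 FPKM in untreated and at 0.15, 0.09 and 0.15 FPKM in exposed spheroids at 24 h. At 144 h it was listed at 0, 0.03 and 0 FPKM in untreated and at 0.03, 0 and 0 FPKM in exposed spheroids. The groups did not overlap at 24 h (exact permutation p = 0.1) and overlapped at 144 h. With 1 fragment worth about 0.0179 FPKM on its transcript, the group means at 24 h stood for about 3.0 and 7.3 fragments. At this depth no difference between exposed and untreated spheroids could be shown. With the level filter removed, its log2 fold change at 24 h was 0.58 (limma adjusted p = 0.0656).

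Reads from related loci may touch these values. Processed pseudogenes of TXN, PRDX1 and PGD are annotated in the genome, EID3 lies within TXNRD1 and a readthrough gene covers SRXN1. RSEM divides fragments that map to several transcripts by estimated shares, so the values of these genes depend on that estimate.

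Promoter sequences from RefSeq (GRCh38.p14) were available for 7 of the 8 genes, all but PRDX1, with 2 alternative starts for TXNRD1. They were searched on both strands, from 250 bases before to 50 bases after the start site, for the core antioxidant response element TGACNNNGC, in which N is any base, and for its form TGACTCAGC, which is contained in it. The core was present in 13.3% of 35116 promoters, and the form TGACTCAGC in 0.561%. In this set the core was present in TXNRD1, PGD and ME1, and its letters were not in the windows of TXN, SRXN1, TALDO1 and TKT. The ME1 window was the one with TGACTCAGC, beginning at position -137 from the start site, and it held the core match TGACGGTGC on the opposite strand at position 12. Positions of matches on the opposite strand are those of their first base along the gene. The first TXNRD1 window held TGACTTCGC at position -99 and, on the opposite strand, TGACGGAGC at position -8. The second held TGACAAAGC on the opposite strand at position -102, and PGD held TGACATTGC on the opposite strand at position -201. The windows of the gene with little transcript and of the reductase are shown from 250 bases before to 30 bases after the start site, 5′ to 3′ along the gene, with matches in capitals (on the opposite strand these appear as their reverse complement). They lie at chr6:83431022-83431301 (minus strand) for ME1 and at chr12:104215529-104215808 and chr12:104286782-104287061 (plus strand) for TXNRD1.
ME1: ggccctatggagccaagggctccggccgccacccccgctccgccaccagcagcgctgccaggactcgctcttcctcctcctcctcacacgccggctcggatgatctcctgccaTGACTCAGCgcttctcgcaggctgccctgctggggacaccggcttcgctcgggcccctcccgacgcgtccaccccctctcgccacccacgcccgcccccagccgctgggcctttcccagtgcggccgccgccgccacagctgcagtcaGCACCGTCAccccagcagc
TXNRD1, first start: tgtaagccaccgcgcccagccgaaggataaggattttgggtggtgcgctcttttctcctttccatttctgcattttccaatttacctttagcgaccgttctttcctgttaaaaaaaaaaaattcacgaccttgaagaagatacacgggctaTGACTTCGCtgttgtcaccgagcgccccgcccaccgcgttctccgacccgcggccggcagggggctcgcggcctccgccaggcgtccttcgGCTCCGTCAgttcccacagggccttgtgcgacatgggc
TXNRD1, second start: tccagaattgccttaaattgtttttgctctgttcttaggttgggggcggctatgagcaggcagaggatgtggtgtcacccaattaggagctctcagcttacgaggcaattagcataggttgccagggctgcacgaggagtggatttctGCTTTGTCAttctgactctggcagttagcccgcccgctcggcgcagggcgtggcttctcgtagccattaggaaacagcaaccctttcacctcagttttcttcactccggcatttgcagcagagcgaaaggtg
A match of this kind is a description of the letters, and binding was not measured in these samples.

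The TPN effect was larger at 144 h than at 24 h in 6 of the 7 tested genes, by the difference of the log2 fold changes in the same limma model, a call that 14.1% of all genes received. The difference was 0.66 (SE 0.037, adjusted p = 7.87e-08) for TXNRD1, 0.55 (SE 0.053, adjusted p = 8.49e-06) for SRXN1 and 0.40 (SE 0.051, adjusted p = 7.85e-05) for TALDO1. It was 0.36 (adjusted p = 4.61e-04) for TXN, 0.23 (adjusted p = 0.00126) for PRDX1 and 0.17 (adjusted p = 0.00318) for TKT. PGD was the exception, with a difference of -0.014 (SE 0.034, adjusted p = 0.793).

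**Figure D2:**
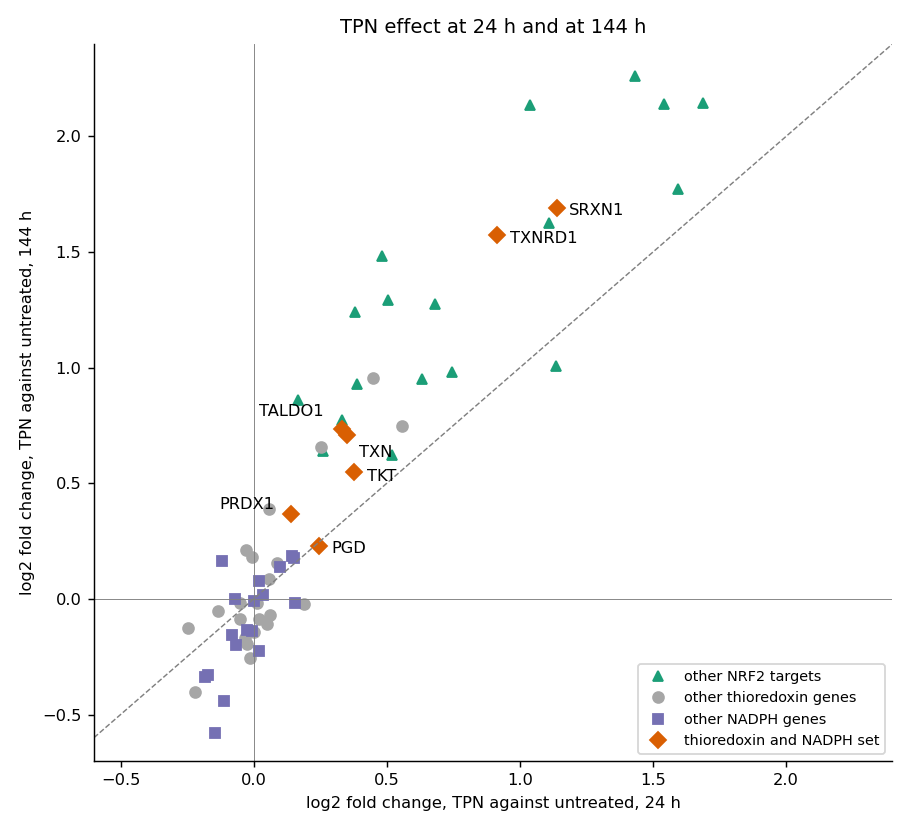
Log2 fold change of exposed against untreated spheroids at 24 h (horizontal) and 144 h (vertical) for the 7 tested genes (diamonds), other NRF2 targets (triangles), other thioredoxin genes (circles) and other NADPH genes (squares), with a dashed line of equal change. SRXN1 and TXNRD1 lie far from the origin and above the line, PGD lies on it at about 0.24, and the other NADPH genes lie near 0 at 24 h and spread down to -0.58 at 144 h.

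The genes also differed in their course in untreated spheroids. Between the 24 h and 144 h time points without TPN, 6 of the 7 genes fell and TKT rose, while 52.4% of all genes fell and 20.1% rose. The median of all genes fell by 0.183 on the log2 scale in this comparison, and scaling by median ratios raised it by 0.176. TALDO1 fell by 0.74, PRDX1 by 0.62, TXN by 0.51 and PGD by 0.34 on the log2 scale, each more than the median gene. The falls of TXNRD1 (0.20) and SRXN1 (0.25) on that scale were close to the median change, and their adjusted p rose to 0.537 and 0.0932 under median-ratio scaling. TKT rose by 0.096 (adjusted p = 0.00456).

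In exposed spheroids TXNRD1, SRXN1 and TKT were higher and TXN, PRDX1, PGD and TALDO1 lower at 144 h than at 24 h, where 24.2% of all genes were higher and 52.0% lower. TXNRD1 rose by 0.46, SRXN1 by 0.30 and TKT by 0.27 on the log2 scale. PRDX1 fell by 0.40, PGD by 0.35 and TALDO1 by 0.34. The fall of TXN by 0.15 was smaller than the change of the median gene, -0.184, its groups overlapped, and it turned into a difference of 0.027 under median-ratio scaling.

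The order of FPKM levels changed with these shifts. In untreated spheroids at 24 h the order from high to low was PRDX1, PGD, TXN, TKT, TALDO1, TXNRD1, SRXN1 and ME1, and no neighbours overlapped. After 144 h of exposure PRDX1 was still highest, PGD overlapped with TXN and TXN with TKT, TXNRD1 came next, and SRXN1 was above TALDO1. TXNRD1 moved from well below TALDO1 to well above it.

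Proportions within a library do not depend on how libraries are scaled to each other. The ratio of TXNRD1 to TXN FPKM was 0.395 ± 0.0111 (SD, n = 3) untreated and 0.584 ± 0.0134 exposed at 24 h. At 144 h the ratio was 0.490 ± 0.0118 untreated and 0.893 ± 0.0704 exposed. The reductase transcript thus gained on thioredoxin at both time points, 1.48-fold and 1.82-fold, with no overlap between groups.

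SRXN1 was at 0.0729 ± 0.0019 of PRDX1 untreated and 0.146 ± 0.0066 exposed at 24 h, and at 0.0942 ± 0.0023 and 0.237 ± 0.0069 at 144 h. The repair enzyme thus gained 1.999-fold on its substrate at 24 h and 2.51-fold at 144 h. PRDX1 made up 43.5% ± 0.645 of the summed FPKM of PRDX1 to PRDX6 untreated and 46.2% ± 0.937 exposed at 24 h, and 37.5% ± 0.284 and 44.5% ± 0.815 at 144 h. TALDO1 relative to TKT overlapped between groups at 24 h (0.810 untreated, 0.786 exposed, exact permutation p = 0.2) and was 0.454 untreated and 0.516 exposed at 144 h without overlap. The exact permutation p of each ratio without overlap was 0.1.

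**Figure D3:**
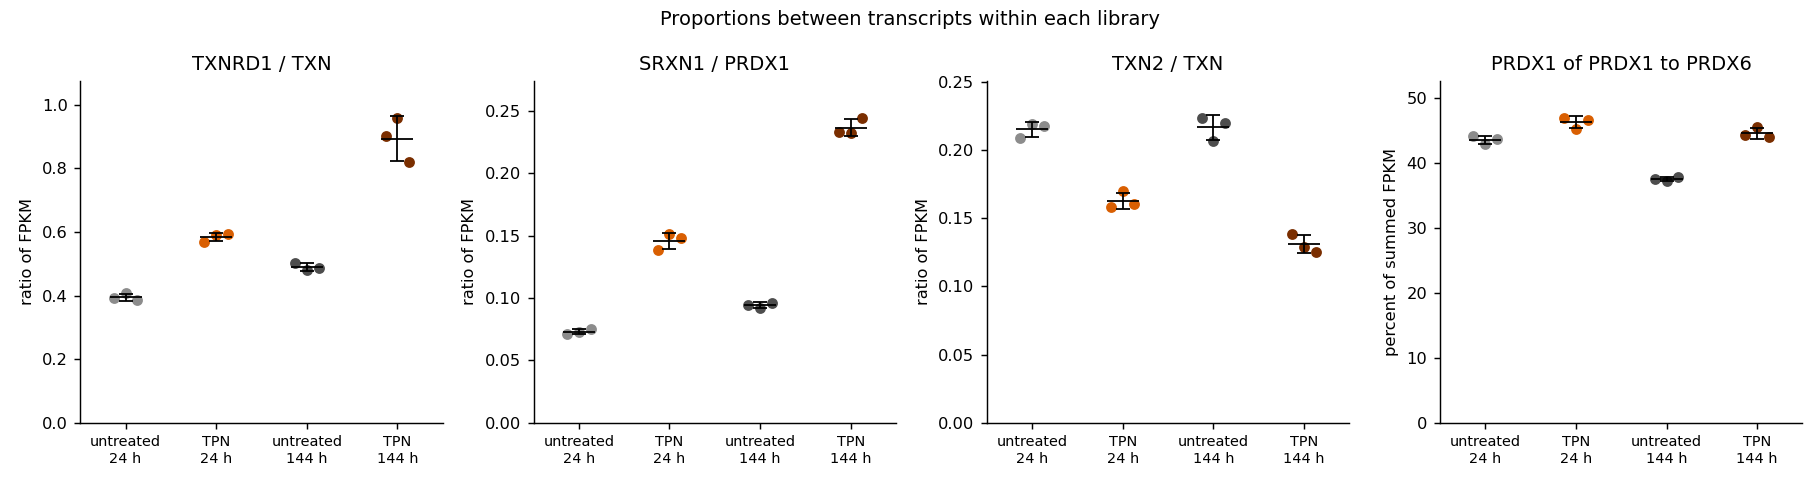
Ratio of FPKM within each library for TXNRD1 to TXN, SRXN1 to PRDX1 and TXN2 to TXN, and PRDX1 as a percentage of the summed FPKM of PRDX1 to PRDX6, by group. Points are libraries and bars the mean and SD of 3 libraries, on axes from 0. TXN2 to TXN is lower in exposed spheroids, at 0.163 and 0.131, than in untreated ones, at 0.215 and 0.217, and the other 3 proportions are higher.

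Other genes of the thioredoxin system went both ways or did not pass the test. Of 24 listed, 22 were tested, 4 were higher and 0 lower in exposed spheroids at 24 h, and 8 were higher and 6 lower at 144 h, with median log2 fold changes of 0.0061 and -0.037. Over all genes tested 5.04% were higher and 5.46% lower at 24 h and 24.2% higher and 28.3% lower at 144 h, so the counts at 144 h were near that background. The mitochondrial partners were among those that did not pass. TXN2, the mitochondrial thioredoxin, had mean FPKM values of 61.9 untreated and 59.7 exposed at 24 h and 43.8 and 43.3 at 144 h (limma adjusted p = 0.474 and 0.737). TXNRD2, the mitochondrial reductase, had 20.0 and 20.1 FPKM at 24 h and 13.1 and 12.9 FPKM at 144 h (adjusted p = 0.932 and 0.817).

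The other peroxiredoxins changed in both directions at 144 h. PRDX5, which acts in mitochondria and peroxisomes among other places, rose by 0.21 on the log2 scale (adjusted p = 8.09e-04) and the endoplasmic reticulum form PRDX4 by 0.088 (adjusted p = 0.0365). PRDX6 fell by 0.26 (adjusted p = 6.85e-04), the mitochondrial PRDX3 fell by 0.14 (adjusted p = 0.00164) and the cytosolic PRDX2 fell by 0.087 (adjusted p = 0.0282) on that scale. At 24 h none of these 5 passed the test, with adjusted p from 0.322 for PRDX4 to 0.999 for PRDX3 (limma). The calls of PRDX2 and PRDX4 at 144 h were lost when any of several single libraries was left out.

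The 4 that were higher at 24 h were GSR, TXNIP, GLRX and TXNL1, the last named after its value was seen. GSR, glutathione reductase, which draws on the same NADPH, went from 82.8 ± 2.84 to 122 ± 1.62 FPKM at 24 h and from 61.4 ± 0.496 to 103 ± 1.54 FPKM at 144 h (SD, n = 3), log2 fold changes of 0.56 (adjusted p = 2.51e-08) and 0.75 (adjusted p = 2.15e-10). TXNIP, an inhibitory partner that binds reduced thioredoxin, rose from 19.4 to 26.6 FPKM at 24 h and from 35.6 to 69.0 FPKM at 144 h, by 0.45 and 0.95 on the log2 scale (adjusted p = 9.46e-07 and 6.84e-11). Relative to TXN, TXNIP overlapped between groups at 24 h (0.0677 and 0.0725, exact permutation p = 0.3) and was 0.176 untreated and 0.209 exposed at 144 h. GLRX, glutaredoxin, which uses glutathione in place of thioredoxin reductase, rose by 0.25 (adjusted p = 0.00201) and 0.66 (adjusted p = 4.20e-08), reaching 316 FPKM after 144 h of exposure against 201 FPKM in untreated spheroids. TXNL1, a thioredoxin-like protein, rose by 0.19 at 24 h (adjusted p = 0.0109) and differed by -0.021 at 144 h (adjusted p = 0.693).

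**Figure D4:**
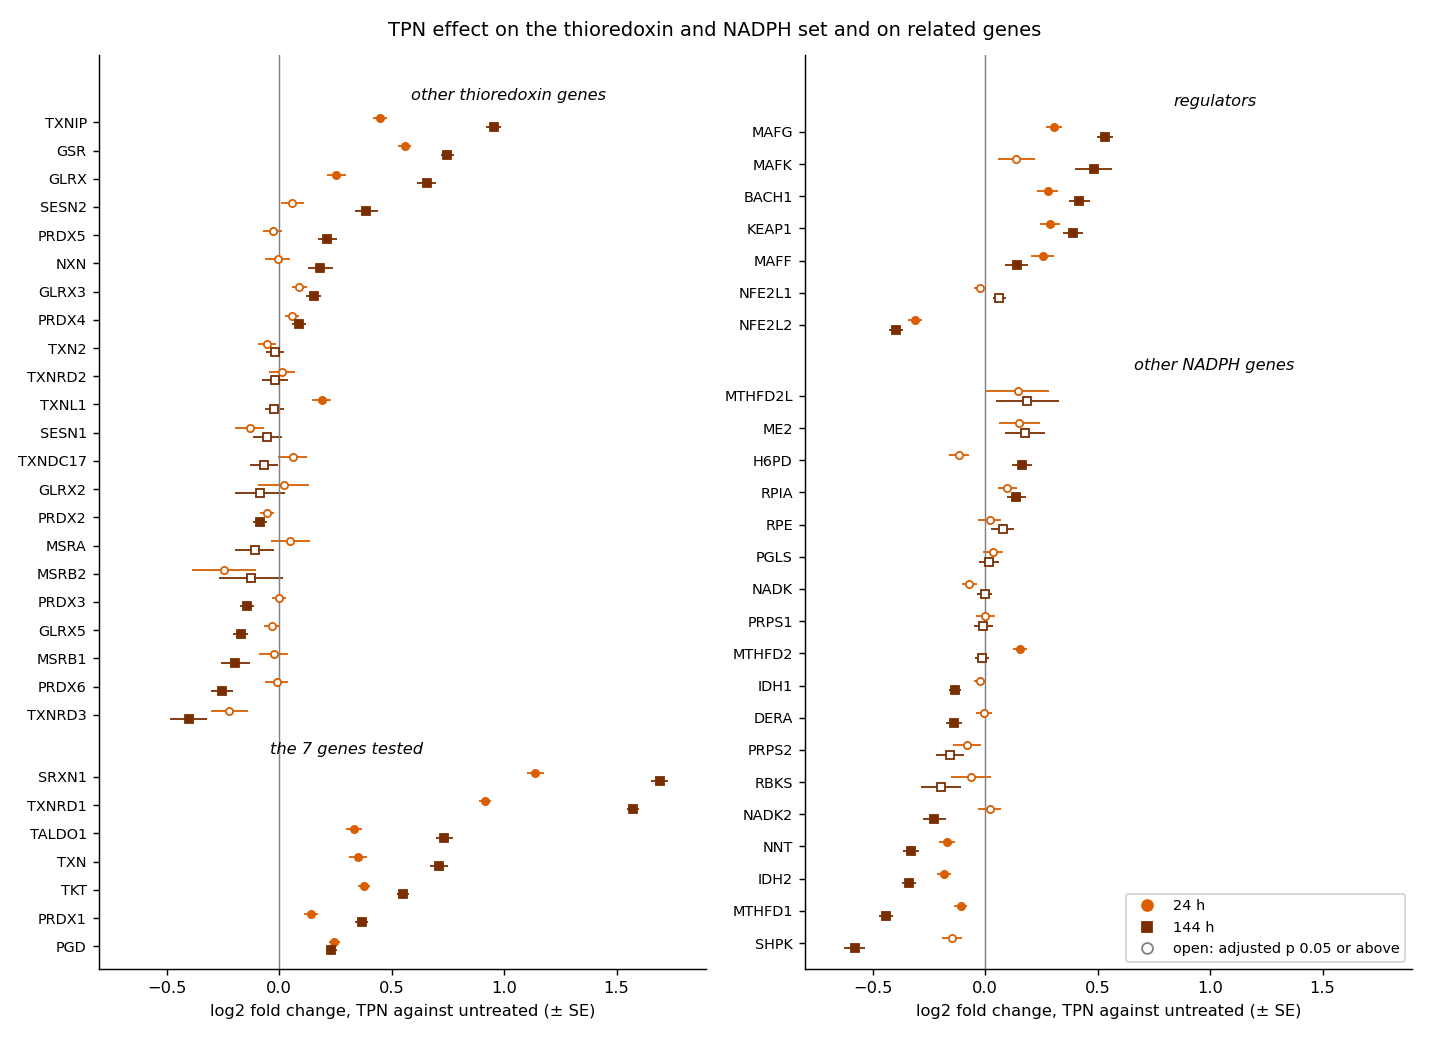
Log2 fold change (± SE from limma) of exposed against untreated spheroids at 24 h (circles) and 144 h (squares) for the 7 tested genes, other thioredoxin genes, other NADPH genes and regulators. Filled symbols have an adjusted p below 0.05. All symbols of the 7 genes are filled and to the right of 0, while both other gene groups lie on both sides of 0.

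The other genes of the NADPH side that are reported here went both ways. Of 23 such genes, 22 were in the table and 18 were tested, of which 1 was higher and 3 lower at 24 h, and 2 were higher and 7 lower at 144 h, with median log2 fold changes of -0.015 and -0.075. Of all genes tested, 5.04% were higher and 5.46% lower at 24 h, and 24.2% were higher and 28.3% lower at 144 h.

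PGLS, the lactonase that acts just before PGD, did not pass the test (47.1 and 48.2 FPKM at 24 h, 43.6 and 44.1 FPKM at 144 h, adjusted p = 0.722 and 0.789). RPE, which feeds the non-oxidative branch, had adjusted p of 0.861 and 0.216. RPIA, which does so too, was at 27.6 and 29.6 FPKM at 24 h (adjusted p = 0.173) and rose from 19.9 to 21.9 FPKM at 144 h (0.14 on the log2 scale, adjusted p = 0.0133). H6PD, which forms NADPH in the endoplasmic reticulum, rose by 0.16 at 144 h (adjusted p = 0.00704) and differed by -0.12 at 24 h (adjusted p = 0.114).

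SHPK, a kinase that makes a substrate of transketolase and transaldolase, was the DEG that fell in this list, from 13.3 ± 0.407 to 8.86 ± 0.407 FPKM at 144 h (SD, n = 3), with a log2 fold change of -0.58 (adjusted p = 1.67e-07), just past the fold criterion. At 24 h it was at 19.8 FPKM untreated and 17.8 FPKM exposed (adjusted p = 0.0549). The cytosolic NADPH source IDH1 fell from 226 to 206 FPKM at 144 h (-0.13 on the log2 scale, adjusted p = 8.14e-04).

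The 3 genes lower at 24 h were NNT, IDH2 and MTHFD1, named after their values were seen. NNT, the transhydrogenase of the inner mitochondrial membrane, fell by 0.17 at 24 h (adjusted p = 0.00807) and by 0.33 at 144 h (adjusted p = 4.88e-06). IDH2, the mitochondrial NADP-dependent isocitrate dehydrogenase, fell by 0.18 (adjusted p = 0.00201) and by 0.34 (adjusted p = 1.07e-06), and MTHFD1, the cytosolic folate enzyme, differed by -0.11 at 24 h (adjusted p = 0.0347) and fell by 0.44 at 144 h (adjusted p = 5.63e-08). Its call at 24 h was lost when any single library of that time point was left out (adjusted p up to 0.124). MTHFD2, its mitochondrial relative and the gene higher at 24 h, chosen in the same way, rose by 0.16 at 24 h (adjusted p = 0.00527) and differed by -0.016 at 144 h (adjusted p = 0.687). Of the other malic enzymes, ME2 was at 3.17 and 3.54 FPKM at 24 h and 2.15 and 2.44 FPKM at 144 h (adjusted p = 0.338 and 0.116), and ME3 was not tested, with group means between 0.113 and 0.363 FPKM.

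Among 7 regulators of the antioxidant response, NFE2L2, which encodes NRF2, was lower in exposed spheroids, at 78.5 ± 1.19 FPKM against 97.4 ± 0.339 FPKM at 24 h and 77.2 ± 1.84 FPKM against 102 ± 3.98 FPKM at 144 h (SD, n = 3). Its log2 fold changes were -0.31 (adjusted p = 1.95e-05) and -0.40 (adjusted p = 1.93e-07). KEAP1, which holds NRF2 for degradation, rose by 0.29 (adjusted p = 9.38e-04) and 0.39 (adjusted p = 7.22e-06). BACH1, a repressor at the same elements, rose by 0.28 (adjusted p = 0.00148) and 0.42 (adjusted p = 4.93e-06). The small MAF partners, named after their values were seen, rose for MAFG by 0.31 (adjusted p = 8.30e-05) and 0.53 (adjusted p = 3.85e-08), for MAFF by 0.26 at 24 h (adjusted p = 0.00531) and for MAFK by 0.48 at 144 h (adjusted p = 2.92e-04). For MAFF at 144 h the log2 fold change was 0.14 (adjusted p = 0.0326), but the groups overlapped (exact permutation p = 0.2), and it was 0.087 without exposed replicate 2 (adjusted p = 0.162).

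The other NRF2 targets listed rose in 16 of 18 genes at 24 h and in 18 of 18 at 144 h, with medians of 0.66 and 1.26 on the log2 scale. Of all genes tested, 5.04% were higher at 24 h and 24.2% at 144 h. AKR1B10, an aldo-keto reductase that consumes NADPH, rose by 1.43 and 2.26, GCLM, a subunit of the enzyme that starts glutathione synthesis, by 1.69 and 2.14, and HMOX1, heme oxygenase, by 1.54 and 2.14 on the log2 scale, with limma adjusted p of at most 9.94e-09 in these 6 tests.

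The profile most like the mean standardized profile of the 7 genes over the 12 libraries was that of FECH, ferrochelatase (Pearson r = 0.994), followed by GSR (0.992), DGKG (0.987), AKR1B10 (0.986) and BHMT2 (0.985). Each of the 7 genes is part of that mean, so their own r with it cannot be set beside those of other genes. Among the 7, r was from 0.708 for TKT to 0.986 for TXN. These values describe 12 libraries in 4 groups of 3 and rest largely on the differences between groups. With each time point centred on its own mean, the 5 closest were NQO1, CLDN4, RAB5IF, AKR1B10 and NXPE3, a group that shares only AKR1B10 with the first 5, and r of the 7 genes was 0.954 to 0.997.

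Other features of the cultures moved with exposure. Of 17 proliferation genes, 11 were lower at 24 h and 17 at 144 h, with median log2 fold changes of -0.15 and -0.56. Of 12 hepatocyte markers, 6 were lower at 24 h and 8 at 144 h, and their summed FPKM ranged from 30348 to 32107 in untreated and from 25756 to 27723 in exposed libraries at 144 h. Of 10 stellate or fibroblast markers tested, 1 was lower at 24 h and 6 at 144 h, with median log2 fold changes of -0.14 and -0.63. In untreated spheroids 9 of these markers fell between 24 h and 144 h, and the median of the 10 was -2.27. Among all genes tested, 5.46% were lower in exposed spheroids at 24 h and 28.3% at 144 h. Between 24 h and 144 h in untreated spheroids, 52.4% of all genes fell. The macrophage list summed to between 49.0 and 49.5 FPKM in untreated and between 63.2 and 66.2 FPKM in exposed libraries at 144 h, which was almost all CD68 (means of 47.8 and 63.7 FPKM), with CD14 at 1.34 and 1.25 FPKM and PTPRC and MARCO below 0.1 FPKM, and the endothelial list to at most 0.53 FPKM in any library. The cholangiocyte list summed to between 301 and 313 FPKM in untreated and between 271 and 280.1 FPKM in exposed libraries at 144 h, where KRT19 had means of 98.5 and 68.7 FPKM, EPCAM 132 and 132 FPKM and SOX9 76.8 and 74.8 FPKM. The part of these shifts in the values of the thioredoxin and NADPH genes was not tested.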

How the data were processed

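Per the submitters' processing notes, HISAT2 v2.0.4 and Bowtie2 v2.2.5 aligned the reads (GRCh38.p13). The authors calculated and deposited FPKM values with RSEM from strand-specific libraries, 1 column per library, rounded to 2 decimals. The table lists mRNA genes, 37 of which are 0 in every library. Counts were not used here, so limma 3.58.1 (R 4.3.3) replaced the count test of the study.

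Genes whose FPKM averaged 0.5 or more were tested as log2(FPKM + 0.1) in 1 model of the 4 groups, with eBayes and an intensity trend. A fold change is on that scale, which understates the change of low genes. P values were adjusted by Benjamini-Hochberg over all 11713 genes, called genes had an adjusted p below 0.05, and DEGs also had an absolute log2 fold change above 0.58, the fold criterion of the study. Exact permutation tests were 2-sided. Depth was estimated from 116 low values, 99.1% of them within 12% of a whole multiple of 1 fragment, with GENCODE transcript lengths less 261 bases; this covers counting error only. The procedure was tested on simulated data. Python 3.11.15 was used for tables and figures.

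The 8 genes, the gene lists and the tests were chosen with earlier results of these data known. Named were all 8 genes, fixed pathway genes, DEGs of the pathway lists, up to 3 DEGs of other lists with the largest change at 144 h, and the 5 genes with the most similar profile. Of the list of other NADPH genes, 1 gene is not reported here, and the counts of that list leave it out for a reason unrelated to its values. Other settings tried were a pseudocount of 1 or 0.01, no filter or one at 5 FPKM, 3 scalings, no trend, only the groups compared, a replicate block, and leaving out each library in turn.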

Additional observations from a re-analysis of the deposited data

Results flagged for a closer look

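The TPN effect differed between 144 h and 24 h in the genes given here, by the difference of the log2 fold changes in the limma model at an adjusted p below 0.05. Among the thioredoxin and NADPH genes the effect at 144 h exceeded that at 24 h by 0.6584 for TXNRD1, 0.554 for SRXN1, 0.4012 for TALDO1, 0.3596 for TXN, 0.2253 for PRDX1 and 0.1728 for TKT on the log2 scale. Among other thioredoxin genes it was higher at 144 h by 0.5061 for TXNIP, 0.4012 for GLRX, 0.2413 for PRDX5 and 0.1891 for GSR, and the difference was -0.2439 for PRDX6 (lost under quantile normalization), -0.2098 for TXNL1 and -0.1424 for PRDX3. Among other NADPH genes the difference was 0.2807 for H6PD, and it was -0.4352 for SHPK, -0.3320 for MTHFD1, -0.1719 for MTHFD2, -0.1589 for NNT, -0.1549 for IDH2 and -0.1106 for IDH1. It was 0.8297 for AKR1B10, 0.5995 for HMOX1 and 0.4562 for GCLM among NRF2 targets, 0.3428 for MAFK and 0.2279 for MAFG among regulators, and 0.4381 for FECH and 0.4206 for BHMT2 among genes of similar profile.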

How the results depend on the processing

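Over 22 alternatives (21 for the difference), no call of the 7 tested genes in a TPN comparison was lost (154 of 154 values at 24 h, 154 of 154 at 144 h and 147 of 147 for the difference kept their side of the threshold). The highest adjusted p among those calls were 0.0395 for PRDX1 at 24 h and 0.0326 for the TKT difference. By adjusted p alone, without the fold criterion, 7 genes were called at 24 h (2 DEGs), 7 at 144 h (4), 6 for the difference (1), 7 for untreated time (2) and 7 for exposed time (0). DEG counts under the other alternatives were computed after seeing the data. Median-ratio scaling left 0 DEGs for untreated time and gave 1 for exposed time (TXNRD1). Without the filter there was 1 for exposed time (ME1), whose group means stood for about 7.3 fragments at 24 h and 0.56 at 144 h. TXN between 144 h and 24 h of exposure reversed to 0.0272 under median-ratio scaling. The regulators called for the difference fell from 2 to 1 without the filter and without the trend, and were 1 to 3 when single libraries were left out. Of other named genes, PRDX2 at 144 h had an adjusted p of 0.0913 without untreated replicate 1, 0.0582 without untreated replicate 3, 0.0732 without exposed replicate 1 and 0.117 without exposed replicate 2. PRDX2 at 144 h was lost without the trend too (0.0657). PRDX4 at 144 h was lost without 5 of the 6 libraries (up to 0.153 without exposed replicate 3). It was also lost with libraries scaled to the same total (0.0664), without the trend (0.073) and with only the groups compared (0.0598). MTHFD1 at 24 h was lost without each of 6 (up to 0.124 without exposed replicate 2). The same held under quantile normalization (0.0505) and without the trend (0.0685). MAFF at 144 h was lost without 4 of 6 (up to 0.162 without exposed replicate 2). Its call was also lost with libraries scaled to the same total (0.0534) and with only the groups compared (0.0598). RPIA at 144 h had 0.0599 without untreated replicate 3 and 0.0582 without exposed replicate 3, and TXNL1 at 24 h without exposed replicate 1 (0.0519). The differences of IDH1, PRDX3, NNT and MAFK were lost without several single libraries, with adjusted p up to 0.0979, 0.0603, 0.0783 and 0.102. Without the trend those of IDH1 (0.0913), PRDX3 (0.063) and MAFK (0.0731) were lost, and that of MAFK without the filter (0.0749). The PRDX6 difference was lost under quantile normalization (-0.1864, adjusted p = 0.0548). The cause was not tested. The fit of only the groups compared could not give the difference.

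With the replicate number as a replicate block, 1226 genes were called at 24 h (1230 without it) and 6130 at 144 h (6144 without it), all 7 genes were called at both times and 6 for the difference, and IDH1 lost its difference (adjusted p = 0.0541) while SHPK at 24 h passed (adjusted p = 0.0444). The labels do not say that a number marks a shared experiment, and the numbers were not taken to pair the libraries. Deviations of same-numbered libraries correlated between -0.083 and 0.1508, with 5 of 18 pairs over 0.1. Those of differently numbered libraries correlated between -0.2411 and 0.1138, with 2 of 36 pairs over 0.1, and 7 of 12 libraries correlated best with their own number.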
